A study of Mus musculus with 12 samples.

Results

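The 4 regressing tumours of this series, chosen by titles that begin with the word for regression, were compared with the 8 tumours taken at the terminal time point, out of 12 tumours in all. The 8 terminal tumours were 4 vehicle tumours and 4 tumours on a drug combination. Both terminal groups had equal weight, so the comparison is with the average of untreated and treated end-stage tumours, and the differences from each are given beside it. The 4 regressing tumours carried the same combination as the terminal combination tumours: palbociclib at 100 mg/kg, an inhibitor of the cell cycle kinases CDK4 and CDK6, and mirdametinib at 1 mg/kg, an inhibitor of the kinase MEK, both given by daily oral gavage. Vehicle tumours received the carrier by the same route. The regressing tumours were harvested during regression.

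All 12 were labelled malignant peripheral nerve sheath tumours, a soft-tissue cancer that arises along nerves, in mice of the strain given as C57B/6 and the genotype given as WT. They were induced with an adenovirus carrying a Cas9 system against Nf1 and a gene spelled Cdk2na in the labels, read here as Cdkn2a. All groups share this induction, and no uninjected tissue or tumour before treatment was analysed here. The labels used here state neither the tumour site, the age and sex of the mice, the day of harvest nor the time of day, and they do not say that each tumour came from a different mouse. The p-values therefore measure the spread between these tumours. Tumours are numbered 1 to 4 within a group in the order of deposition, and the numbers pair nothing.

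Loss of Nf1, which encodes a brake on RAS, leaves the RAF, MEK and ERK kinases active, and loss of Cdkn2a frees CDK4 and CDK6 to inactivate the RB protein and start DNA replication. Palbociclib and mirdametinib act on these 2 branches. A shrinking tumour loses malignant cells, its debris is taken up by phagocytes, and the immune, vascular, connective and neighbouring normal tissue can make up more of what is left. In RNA from whole tumour pieces, fewer cells of a type and less RNA per cell cannot be told apart.

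The 12 libraries held 13194699 to 22639625 counts. A count of 0 allowed a level of up to 0.133 to 0.227 CPM (counts scaled to a common library size), depending on the library. The titles of regressing 1, vehicle 1, vehicle 2 and combination 1 end in FFT, which the labels do not explain, so it is treated as a possible batch. The defining markers of the Schwann lineage were low: Sox10 lay between 0.54 and 1.16 CPM in regressing tumours and between 0 and 2.1 CPM in terminal ones, with 3 terminal libraries at 0. Nf1 reads lay between 11.6 and 19.5 CPM in the regressing tumours and 10.2 to 23.8 CPM in the terminal ones. Cdkn2a ranged from 7.49 to 393 CPM and from 5.08 to 257 CPM, a wide spread inside every group. A Cas9 cut need not lower the RNA, so neither level checks the edit. The libraries also held unequal amounts of muscle. Skeletal muscle genes took 6.2%, 0.529%, 1.36% and 4.31% of reads in regressing 1 to 4, 0.0741% to 1.27% in vehicle tumours and 0.346% to 3.97% in terminal combination tumours (exact two-sided permutation test of 4 against 8, p = 0.121, adjusted over 5 read shares 0.152). Regressing 1, regressing 4 and combination 2 held the most muscle. Where the median of a gene list changed sign or moved by over 1.5 times without regressing 1 and 4 or with another library left out, the values that moved furthest are given beside it.

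No gene passed an adjusted p of 0.05 between regressing and terminal tumours in edgeR's quasi-likelihood test (0 of 15650 genes, 0.0%, Benjamini-Hochberg adjustment). The smallest adjusted p in that edgeR fit was 0.0605, and all 5 genes with an adjusted p under 0.1 were immunoglobulin genes. None of the 5 exceeded 0.467 CPM in any terminal tumour. They passed the low-count filter only through the regressing tumours, so their direction is partly set by that filter. At an unadjusted p under 0.05 the same fit held 1030 genes higher in regressing tumours (6.58% of those tested) and 836 lower (5.34%), where the threshold alone would give 782 in all. With fewer libraries in the fit these counts were 648 and 443 without regressing 1, 551 and 564 without regressing 4, and 222 and 263 without both. DESeq2, run as an alternative, called 213 genes higher (0.8% of 26632) and 91 lower (0.342%), and limma voom called 0 in either direction. Of the 304 DESeq2 calls 49 were immunoglobulin genes, all 49 higher in regressing tumours. DESeq2 was run without edgeR's low-count filter, which kept only 24 immunoglobulin genes. Some of the 49 are therefore genes with few reads, whose direction follows from the group that holds those reads. How many of the 26632 genes are immunoglobulin genes was not counted, so the 49 are no separate support. The edgeR test also called 0 genes for regressing against vehicle tumours (1994 at unadjusted p under 0.05, 12.7%), 0 for regressing against terminal combination tumours (1099, 7.02%) and 0 between the terminal groups (930, 5.94%). The first 2 of these share the regressing tumours with the main comparison.

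A second description counted genes whose 4 regressing values lay outside all 8 terminal values. Such separation upward was seen for 71 genes (0.454%) and downward for 130 (0.831%). Across all genes tested 7553 were higher (48.3%) and 8097 lower (51.7%), with a median log2 difference of -0.01. These shares are the background against which the gene groups below are read. The 15 protein-coding genes with the smallest p in each direction are the ones described most closely. Of the 15 higher genes 12 lay above every terminal tumour, and all 15 of the lower genes lay below every terminal tumour. Their edgeR adjusted p lay between 0.152 and 0.221, so none passed by that test, while DESeq2 called all 30. The 30 were picked by p in this same comparison. Their separation and their DESeq2 calls largely follow from that choice and are no further support. Of the 30, 3 had an unadjusted edgeR p under 0.05 between the terminal groups (Glycam1, Naglu and Myoc).

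**Figure D1:**
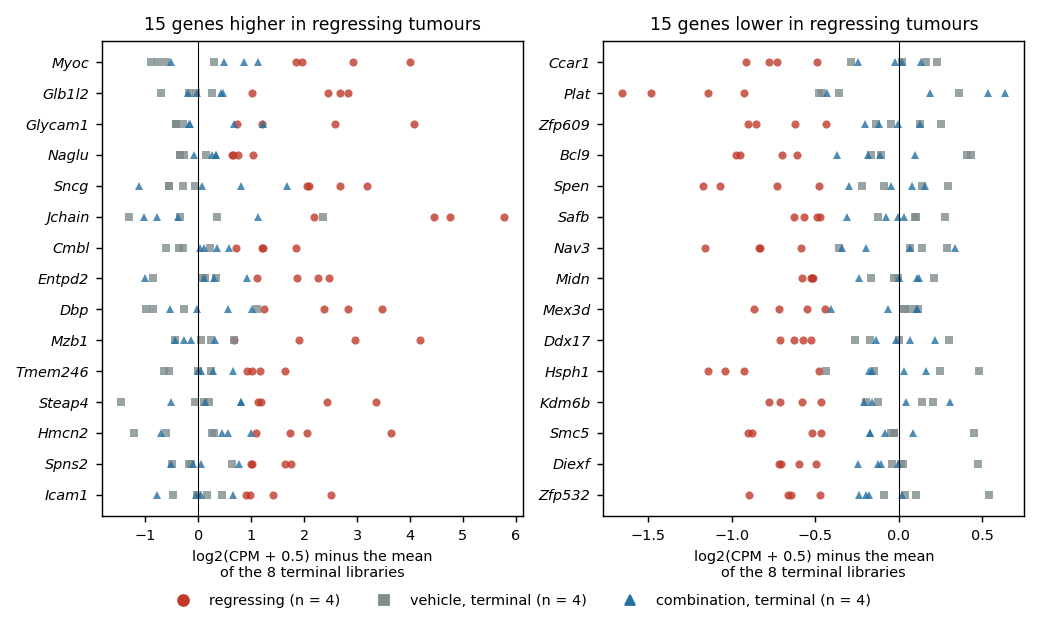
Level of each of the 30 genes in each library, as log2(CPM + 0.5) minus the mean of the 8 terminal libraries. Red circles are regressing tumours, grey squares vehicle and blue triangles terminal combination tumours. The red circles of the 15 lower genes all lie left of the terminal symbols, and those of 12 of the 15 higher genes all lie right of them.

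Immunoglobulin constant genes had the highest median difference of the 44 gene lists examined. Plasma cells, the end state of B cells, secrete antibody and give much of their RNA to immunoglobulin chains. Igkc, the kappa light chain constant gene (chr6:70726435-70726966, plus strand, GRCm38), stood at 429, 900.2, 87.8 and 625 CPM in regressing 1 to 4. Vehicle tumours held 9.67, 7.43, 2.39 and 81.6 CPM and terminal combination tumours 12.6, 4.11, 18.2 and 19.1 CPM. All 4 regressing tumours were above all 8 others, but regressing 3 lay close to vehicle 4. The log2 difference was 4.79 (SE 0.84, edgeR adjusted p = 0.152), and DESeq2 gave an adjusted p of 1.52e-06. It was 4.34 against vehicle and 5.24 against terminal combination tumours.

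Ighm, the mu heavy chain of IgM, stood at 378, 636, 81.6 and 695 CPM in regressing tumours and at 16.2 to 115 CPM in terminal ones. Regressing 3 lay inside the terminal range and the other 3 lay far above it (log2 difference 3.14, SE 0.50, edgeR adjusted p = 0.134). The lambda constant genes Iglc1 and Iglc2 had the largest differences among the tested constant genes, 5.33 (SE 0.76, edgeR adjusted p = 0.0742) and 5.50 (SE 0.72, edgeR adjusted p = 0.0605). Iglc1 levels were 5.03, 8.94, 0.754 and 11.2 CPM in regressing tumours against 0 to 0.467 CPM in terminal ones, and the groups did not overlap. Iglc2 was at most 0.233 CPM in terminal tumours. At such levels the fitted differences are no measure of a fold. Iglc1 and Iglc2 passed the low-count filter only through the regressing tumours, so the count of higher constant genes is partly set by that filter. These immunoglobulin genes are close relatives of each other, and reads that fit several of them may have been split. All 10 tested immunoglobulin constant genes were higher in regressing tumours, with a median log2 difference of 3.94, an unadjusted edgeR p under 0.05 for 10, DESeq2 calls for 8, and separation from all terminal tumours for 3. Leaving out regressing 4 lowered that median to 2.86 with 10 of 10 still higher.

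Jchain encodes the chain that joins IgM and IgA units, and Mzb1 a chaperone for antibody assembly. Jchain was 43.1, 109, 8.52 and 53.5 CPM in regressing tumours, 2.05, 1.07, 0.305 and 9.69 CPM in vehicle and 0.665, 0.476, 1.03 and 3.88 CPM in terminal combination tumours. Regressing 3 lay below vehicle 4, and the other 3 regressing tumours were above every terminal tumour (log2 difference 4.58, SE 0.85, edgeR adjusted p = 0.169). Mzb1 was 2.04, 4.76, 0.577 and 11.9 CPM against 0 to 0.584 CPM, again with regressing 3 just under the highest vehicle tumour (log2 difference 4.60, SE 0.87, edgeR adjusted p = 0.169). Pou2af1, a B cell transcription coactivator, was 0.828, 2.79, 0.399 and 20.1 CPM against 0 to 0.642 CPM (log2 difference 4.60, SE 1.00, edgeR adjusted p = 0.225), and its highest value was in regressing 4. Of 13 plasma cell markers tested 11 were higher, with a median log2 difference of 0.54 (0.28 without regressing 4, 0.34 without regressing 1 and 4) and DESeq2 calls for 3. That list holds genes of the secretory pathway that other cells also use.

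The share of all reads from immunoglobulin genes was 0.0919%, 0.205%, 0.0238% and 0.178% in regressing 1 to 4 and 0.00426% to 0.0292% in the 8 terminal tumours. The difference of means was 0.115 percentage points (exact two-sided permutation test, p = 0.00808, adjusted over 5 read shares 0.0404, where the smallest possible p is 0.00404). With 1 library left out at a time the difference lay between 0.0882 and 0.149, and the adjusted p of the exact test lay between 0.0303 and 0.121. It stayed under 0.05 without vehicle 4 and without combination 4, and exceeded 0.05 when any of the other 10 was left out. Fewer libraries allow fewer arrangements, so the smallest possible p is then larger, most of all with a regressing tumour left out. Without regressing 3 an exact p of 0.0121 became 0.0606 after adjustment. Crossing 0.05 with fewer libraries is therefore no measure of a weaker difference. Among the 8 libraries without the FFT ending the difference was 0.124, with an exact p of 0.0714 (adjusted 0.357), and the same limit on the smallest p holds there.

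B cell and T cell markers were higher as well, but most of their size came from 1 tumour. Cd79a, part of the B cell receptor, was 1.02, 1.97, 0.399 and 58 CPM in regressing 1 to 4 and 0 to 1.46 CPM in terminal tumours. Only regressing 4 and regressing 2 lay above all terminal tumours. The 4 tested B cell markers were all higher (median log2 difference 2.37, and 0.94 without regressing 4), and Cd79b was 7.58, 12.6, 2.71 and 54.6 CPM against 1.37 to 8.47 CPM. All 16 T cell markers were higher, 13 of them at an unadjusted edgeR p under 0.05, with DESeq2 calls for 7 and a median log2 difference of 2.62. Their summed level was 79.2, 158, 40.5 and 674 CPM in regressing 1 to 4 and 27.6 to 110.9 CPM in the terminal tumours. Regressing 4 was the highest, regressing 2 was above the terminal range, and regressing 1 and 3 were inside it.

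Cd3g, a chain of the T cell receptor complex, was 4.21, 13, 0.976 and 42.7 CPM against 0.417 to 3.46 CPM (log2 difference 2.99, SE 0.77, edgeR adjusted p = 0.268). The other leading T cell members were Cd5, a surface receptor of T cells, at 2.77 (SE 0.69, edgeR adjusted p = 0.268), Trbc1, a receptor constant gene, at 3.19 (SE 0.89, edgeR adjusted p = 0.288), and Cd3d at 2.86 (SE 0.80, edgeR adjusted p = 0.288). None of these 4 separated the groups. Without regressing 4 the median of the T cell list was 0.93, with 14 of 16 higher and 1 at an unadjusted edgeR p under 0.05. Without regressing 3 the T cell list had a median of 3.02, with 14 at p under 0.05. Of the 11 cytotoxic lymphocyte genes tested 11 were higher (median 0.94), and without regressing 4 that median was -0.15, while without combination 4 it was 1.51.

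Genes that draw lymphocytes into tissue followed. Glycam1 encodes a ligand for L-selectin made by the high endothelial venules of lymph nodes. It was 3.5, 1.04, 0.621 and 10.8 CPM in regressing tumours, 0, 0, 0.0508 and 0 CPM in vehicle and 0.102, 1.07, 0.0978 and 0.571 CPM in terminal combination tumours. Regressing 2 and 3 lay below combination 2, and the 4 vehicle libraries held 1 read in all, so the fitted log2 difference of 5.36 (SE 0.94, edgeR adjusted p = 0.152) is no measure of a fold against vehicle. Icam1, an adhesion molecule that leukocytes bind on vessel walls, was 64.2, 45.2, 47.5 and 138 CPM in regressing tumours and 13.7 to 37.8 CPM in terminal ones. The groups did not overlap (log2 difference 1.56, SE 0.33, edgeR adjusted p = 0.221), and terminal combination minus vehicle was -0.01 (SE 0.39).

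Cxcl13, the chemokine that gathers B cells into follicles, was 24.9, 15.7, 7.81 and 17.2 CPM in regressing tumours against 0.358 to 10.7 CPM (log2 difference 2.04, SE 0.61, edgeR adjusted p = 0.297), with only regressing 3 inside the terminal range. Ltb, a cytokine that builds lymphoid tissue, was 4.46, 7.61, 0.665 and 61.9 CPM against 1.07 to 4.49 CPM, and Ccr7, the receptor that leads cells to lymph nodes, was 2.55, 6.91, 1.64 and 95.7 CPM against 1.76 to 9.32 CPM. In both of these the highest value was in regressing 4. All 8 tested genes of the lymphoid homing list were higher, 7 at an unadjusted edgeR p under 0.05 (median log2 difference 1.81, and 0.78 without regressing 4). Lyve1, a hyaluronan receptor of lymphatic vessels, was 44, 97.8, 28.6 and 71.9 CPM against 5.72 to 35.8 CPM (log2 difference 1.57, SE 0.40, edgeR adjusted p = 0.268). All 6 lymphatic endothelium genes tested were higher (median 0.74, and 1.38 without combination 4), beside 15 of 16 genes of blood vessel endothelium (median 0.34, and 0.19 without the FFT libraries).

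Antigen presentation and interferon genes were higher as whole lists, with the same tumour leading. All 14 MHC class I and peptide loading genes were higher (median log2 difference 1.03, 8 at an unadjusted edgeR p under 0.05). Without regressing 4 the median was 0.46 with 0 genes at p under 0.05, and without regressing 3 it was 1.33 with 12. B2m, the light chain of MHC class I, was 1112, 2018, 562 and 2876 CPM in regressing tumours and 584 to 1441 CPM in terminal ones, and regressing 3 was the lowest of all 12. H2-Q7 had a log2 difference of 2.19 (SE 0.72, edgeR adjusted p = 0.317), and Psmb8, an immunoproteasome subunit, one of 1.12 (SE 0.38, edgeR adjusted p = 0.326). All 12 MHC class II genes were higher (median 0.84, with 0.32 without regressing 4, 0.23 without regressing 1 and 4, and 1.27 without combination 4), led by H2-Ob at 2.26 (SE 0.56, edgeR adjusted p = 0.268). All 18 interferon-stimulated genes were higher (median 0.86), but without regressing 4 the median was 0.03 with 9 higher and 9 lower. Cxcl9, an interferon-gamma-induced chemokine, was 16.8, 101, 4.26 and 276 CPM against 1.61 to 83.2 CPM. Cd274, which encodes PD-L1, was 4.01, 8.71, 2.57 and 23.4 CPM against 1.79 to 13 CPM (log2 difference 0.88, SE 0.61, edgeR adjusted p = 0.587) and lay inside the terminal range in 3 of the 4.

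Of 18 complement genes 17 were higher (median log2 difference 1.02), 7 at an unadjusted edgeR p under 0.05. That median was 0.63 without regressing 4 (3 genes at p under 0.05), 0.39 without regressing 1 and 4 (1 gene) and 0.41 with the adipocyte score as a covariate. C3, the central complement protein, was 182, 155, 81.8 and 855 CPM in regressing tumours against 49.4 to 152 CPM (log2 difference 2.04, SE 0.49, edgeR adjusted p = 0.253). Cfd, a complement protease made mainly by fat cells, was 33.9, 78.8, 57 and 273 CPM against 0 to 33.7 CPM, with regressing 1 only just above combination 4 (log2 difference 3.25, SE 0.91, edgeR adjusted p = 0.288). Cd55, an inhibitor of complement on cell surfaces, had a log2 difference of 1.82 (SE 0.56, edgeR adjusted p = 0.297). Myeloid lists differed less. Of 16 macrophage markers 14 were higher with a median of 0.28, of 17 genes for uptake of dead cells 12 (0.22, and 0.10 without regressing 2), of 7 neutrophil and monocyte markers 4 (0.12), of 10 mast cell markers 8 (0.41) and of 11 dendritic cell markers 10 (0.80). Without regressing 4 the median was 0.01 for mast cells, with 5 of 10 higher, and 0.34 for dendritic cells, and without regressing 1 and 4 it was 0.08 and 0.11. With the adipocyte score both lists turned, to -0.38 and -0.45. With 1 library out the mast cell median reached 0.90 (without combination 1), the macrophage median lay between 0.05 (without regressing 2) and 0.51 (without vehicle 1), and the neutrophil and monocyte median between -0.03 (without combination 4) and 0.48 (without vehicle 3). Siglech, of plasmacytoid dendritic cells, was 3.12, 3.13, 0.577 and 6.25 CPM against 0.456 to 1.8 CPM (log2 difference 1.93, SE 0.53, edgeR adjusted p = 0.282), and Zbtb46, of classical dendritic cells, had a difference of 0.80 (SE 0.28, edgeR adjusted p = 0.333). Mertk and Tyro3, receptors by which phagocytes take up dying cells, went the other way, with log2 differences of -0.83 (SE 0.34, edgeR adjusted p = 0.371) and -1.12 (SE 0.44, edgeR adjusted p = 0.359).

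**Figure D2:**
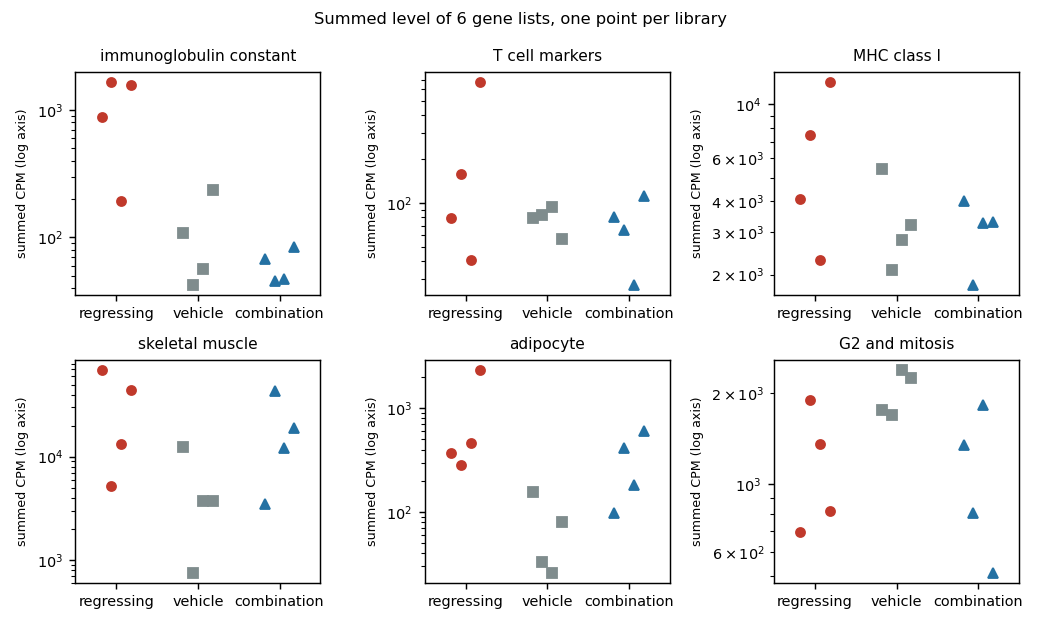
Summed CPM (log axis) of 6 gene lists, one point per library, in the regressing, vehicle and terminal combination groups. The regressing tumours held 192.5 to 1653 CPM of immunoglobulin constant genes against 42.6 to 235.5 CPM in terminal tumours, while T cell and MHC class I sums are led by 1 regressing tumour and the muscle sums span a wide range in each group.

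Several genes outside the immune lists separated the regressing tumours from every terminal tumour. Myoc encodes myocilin, a secreted protein known from the eye that is also made in muscle and nerve. It was 18.9, 8.65, 3.86 and 4.17 CPM in regressing 1 to 4, 0.984, 0.214, 0.152 and 0.292 CPM in vehicle and 1.69, 2.14, 0.342 and 1.2 CPM in terminal combination tumours. All regressing values were above all terminal ones (log2 difference 3.55, SE 0.60, edgeR adjusted p = 0.152), and the difference was 4.38 against vehicle and 2.72 against terminal combination tumours. Sncg, which encodes gamma-synuclein, a protein of peripheral nerves and fat cells, was 22.6, 9.93, 10.2 and 15.6 CPM against 0.665 to 7.59 CPM, with no overlap (log2 difference 2.66, SE 0.47, edgeR adjusted p = 0.152).

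Steap4, a metalloreductase of fat and inflamed tissue, was 101, 40.7, 42.1 and 191 CPM in regressing tumours against 6.33 to 32.4 CPM (log2 difference 2.24, SE 0.44, edgeR adjusted p = 0.19). Entpd2, an enzyme that cleaves extracellular ATP, was 21, 9.17, 15.9 and 24.4 CPM against 1.74 to 7.99 CPM (log2 difference 2.02, SE 0.38, edgeR adjusted p = 0.169), and its values were 2.15 against vehicle and 1.88 against terminal combination tumours. Both genes separated the groups. Spns2 exports sphingosine-1-phosphate, the lipid that steers lymphocyte exit, and was 46.8, 27.9, 27.5 and 43.3 CPM against 9.34 to 23.4 CPM (log2 difference 1.34, SE 0.28, edgeR adjusted p = 0.215), with regressing 2 and 3 only slightly above combination 2.

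Naglu encodes a lysosomal enzyme that breaks down heparan sulfate. Its level was 89.4, 87.4, 115 and 95.2 CPM in regressing tumours, 44.2, 62.2, 44 and 46.9 CPM in vehicle and 52.9, 70.8, 71.3 and 67.9 CPM in terminal combination tumours. The regressing tumours were all above the rest, with a small spread in each group (log2 difference 0.77, SE 0.13, edgeR adjusted p = 0.152), and its unadjusted edgeR p between the terminal groups was 0.0241. Glb1l2, which belongs to the beta-galactosidase family, had 4 regressing values between 1.15 and 5.25 CPM and terminal values from 0 to 0.627 CPM (log2 difference 3.50, SE 0.61, edgeR adjusted p = 0.152). Cmbl, an enzyme of the cytosol that cleaves esters, was 8.98, 6.1, 8.83 and 14.1 CPM against 2.14 to 5.59 CPM. Tmem246 and Hmcn2, the latter a large matrix protein, also lay above all terminal tumours, with log2 differences of 1.26 (SE 0.25, edgeR adjusted p = 0.19) and 2.52 (SE 0.52, edgeR adjusted p = 0.208).

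Genes of fat, muscle and red blood cells were higher in the regressing samples, and Myoc, Sncg and Steap4 are among the genes known to be made in such tissue. The part of tissue content in the differences of these genes was not tested. Over the 27 alternatives, which include the muscle and adipocyte scores, their log2 differences were 2.87 to 4.02 (Myoc), 1.8 to 2.99 (Sncg) and 1.06 to 2.51 (Steap4). All 12 adipocyte genes tested were higher, with a median log2 difference of 2.67 (3.88 against vehicle, 1.39 against terminal combination), 11 at an unadjusted edgeR p under 0.05. Without regressing 4 all 12 were still higher (median 1.95), with 3 at p under 0.05. Without regressing 1 and 4 there were 2 (median 1.98), and without combination 4 there were 12 (median 3.42). Adipoq, the fat cell hormone adiponectin, was 13.2, 23.5, 17.1 and 37.8 CPM in regressing tumours, 2.91, 0.5, 0.0508 and 1.69 CPM in vehicle and 0.665, 9.17, 0.88 and 11.5 CPM in terminal combination tumours. No values overlapped, although combination 2 and 4 came close (log2 difference 3.09, SE 0.82, edgeR adjusted p = 0.276). Plin4, a lipid droplet protein, had a difference of 2.84 (SE 0.77, edgeR adjusted p = 0.282), and Car3, an enzyme abundant in fat and slow muscle, one of 2.60 (SE 0.80, edgeR adjusted p = 0.297). The adipocyte read share was 0.0335%, 0.0284%, 0.0476% and 0.229% in regressing 1 to 4 and 0.00282% to 0.0586% in terminal tumours (exact permutation p = 0.0646, adjusted 0.121). The difference of means was 0.0651 percentage points with all libraries and 0.017 without regressing 4.

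Of 20 mature muscle fibre genes 19 were higher, with a median log2 difference of 1.76 (2.71 against vehicle, 0.84 against terminal combination), and 0.04 without regressing 1 and 4. Pvalb, a calcium buffer of fast fibres, was 2088, 171, 319 and 1443 CPM against 0.661 to 723 CPM, and the groups overlapped. Genes of muscle stem cells and of regenerating or denervated muscle did the reverse. Of 15 tested 14 were lower, with a median of -1.35 (-2.24 without regressing 4), and Myog, a factor of differentiating myoblasts, was 1.91, 0.348, 10.8 and 18.8 CPM against 0.286 to 329.5 CPM (log2 difference -3.18, SE 1.48, edgeR adjusted p = 0.429). The 6 red blood cell genes tested were all higher (median 1.47), but without regressing 2 the median was 0.46 with 5 of 6 higher. The red blood cell share of reads was 0.0479 percentage points higher in regressing tumours and 0.00529 without regressing 2. In this list Alas2, the first enzyme of haem synthesis in red cells, had a difference of 1.53 (SE 0.67, edgeR adjusted p = 0.405). The mitochondrial genome gave 1.95%, 1.01%, 0.839% and 2.14% of reads in regressing 1 to 4 and 0.562% to 1.49% in terminal tumours (exact permutation p = 0.0727, adjusted 0.121). Of 15 genes for fatty acid use 14 were higher (median 0.34), and 9 without regressing 1 and 4 (median 0.04). With muscle score or adipocyte score as a covariate, edgeR still called 0 genes.

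Adipocyte and muscle content moved with the immune result. With the adipocyte score as a covariate the median log2 difference was 2.69 for the immunoglobulin constant genes, 0.50 for T cell markers, 0.45 for MHC class I and -0.29 for MHC class II. With the muscle score as a covariate these were 3.28, 1.83, 0.82 and 0.55. With the adipocyte score the medians of B cell markers, cytotoxic genes, interferon-stimulated genes and macrophage markers were 0.49, -0.69, 0.08 and 0.01. Without either score the medians of the first 4 lists were 3.94, 2.62, 1.03 and 0.84. Of the 10 immunoglobulin constant genes, all 10 had an unadjusted edgeR p under 0.05 without a score. With the adipocyte score 5 did, and with the muscle score 9. The part of fat and muscle content in the immune difference was not tested further. Among resting fibroblast genes 14 of 16 were higher (median 0.37, and 0.24 without regressing 1 and 4). Ly6a, which encodes the surface protein Sca-1 of progenitor and vessel cells, was 253, 615, 212 and 672 CPM against 23.2 to 185 CPM with no overlap (log2 difference 1.94, SE 0.46, edgeR adjusted p = 0.253), and Clec3b, which encodes the plasma protein tetranectin, had a difference of 3.08 (SE 0.81, edgeR adjusted p = 0.275). Of 12 pericyte and smooth muscle genes 7 were higher (median 0.42, with 0.20 without regressing 2, 0.27 without regressing 1, 0.10 without regressing 1 and 4, and -0.08 with the muscle score), led by Rgs5, a pericyte marker, at 0.79 (SE 0.23, edgeR adjusted p = 0.296). Of 6 keratinocyte genes 3 were higher (median -0.23), and with 1 library out the median lay between -1.12 (without regressing 3) and 0.19 (without vehicle 1).

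**Figure D3:**
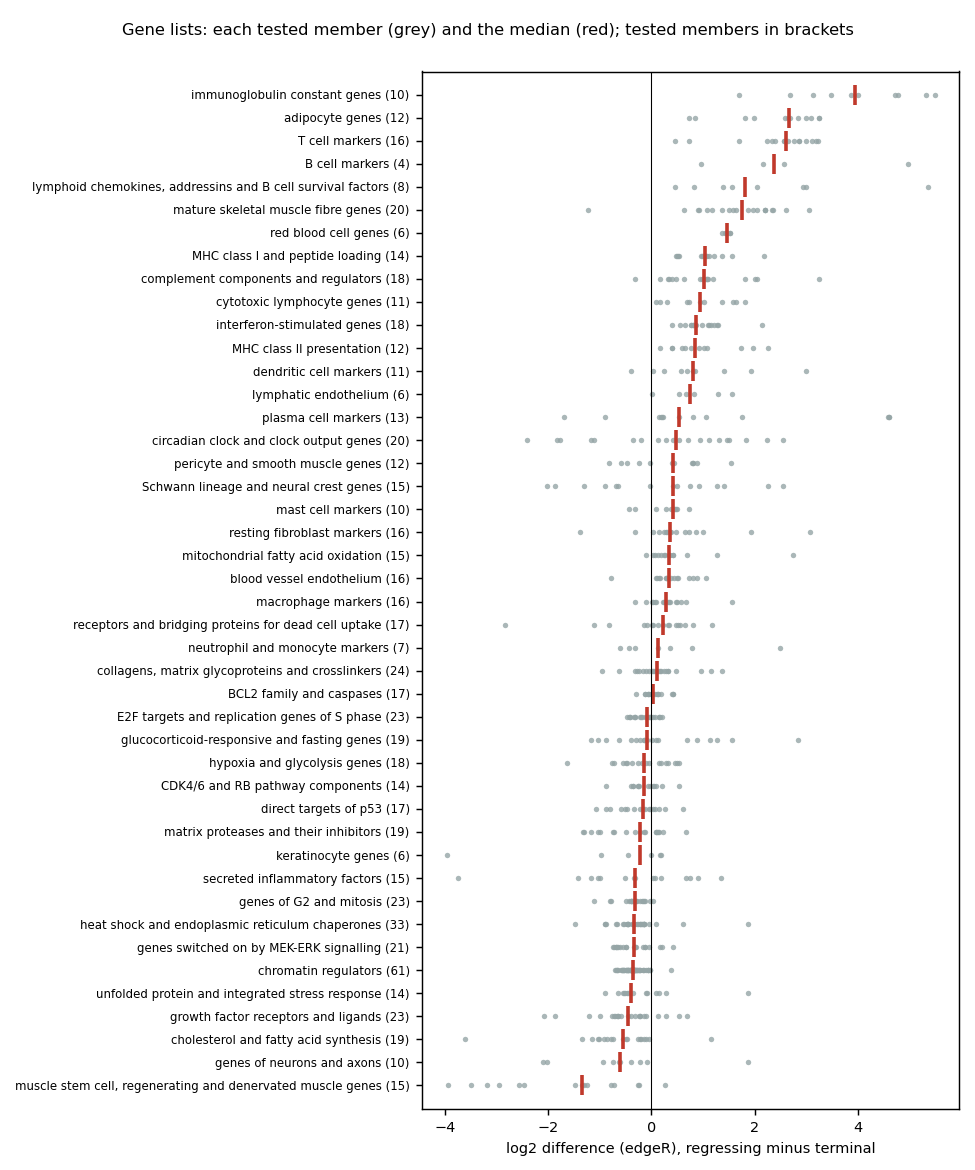
log2 difference between regressing and terminal tumours (edgeR) for each tested member of 44 gene lists, with the red bar at each list's median and the number of tested members in brackets. Immunoglobulin constant genes have the highest median (3.94) and regenerating muscle genes the lowest (-1.35), while all genes tested have a median of -0.01.

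Dbp and Nr1d2 of the circadian clock lay above every terminal tumour and Arntl below every one. In the clock, ARNTL (also called BMAL1) with CLOCK or NPAS2 binds E-boxes and switches on Per, Cry, Dbp, Tef and Nr1d genes, whose products feed back, and NR1D1 and NR1D2 repress Arntl and Nfil3. DBP, TEF and HLF activate D-box genes and NFIL3 represses them. The level of each gene therefore depends on the hour. The labels used here give no time of day for any tumour, and the part of harvest time in these differences was not tested. The clock list was chosen after these values were seen. Of 20 clock genes tested 13 were higher and 7 lower, with 9 higher and 4 lower at an unadjusted edgeR p under 0.05 and DESeq2 calls for 3 higher and 1 lower. Without regressing 1 and 4 there were 10 higher and 10 lower, with 3 and 2 at p under 0.05, and the list median went from 0.48 to -0.08. With the muscle score as a covariate there were again 10 and 10 (median 0.07), with 3 and 3 at p under 0.05.

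Dbp, an output factor of the clock, was 57, 18.6, 41.9 and 89.8 CPM in regressing 1 to 4, 6.25, 17.1, 3.96 and 3.62 CPM in vehicle and 7.47, 16, 5.13 and 11.5 CPM in terminal combination tumours. All regressing values were above all terminal ones, though regressing 2 only just exceeded vehicle 2 (log2 difference 2.56, SE 0.48, edgeR adjusted p = 0.169). Nr1d2 was 60, 49, 62.6 and 98 CPM against 15.2 to 47.4 CPM, without overlap (log2 difference 1.31, SE 0.27, edgeR adjusted p = 0.221). Nr1d1 was 65, 59.3, 97.8 and 93.7 CPM against 14.8 to 65.1 CPM, with regressing 1 and 2 at or below combination 2 (log2 difference 1.51, SE 0.33, edgeR adjusted p = 0.221).

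Arntl was on the other side, at 13.5, 13.2, 11.3 and 10.1 CPM in regressing tumours, 30.7, 76.8, 25.4 and 15.9 CPM in vehicle and 60.7, 81.7, 20.3 and 37.1 CPM in terminal combination tumours. All regressing values lay below all terminal ones and close together (log2 difference -1.84, SE 0.46, edgeR adjusted p = 0.268, DESeq2 adjusted p = 0.00643). Across the 27 alternative analyses its difference stayed between -1.96 and -1.42, and that of Dbp between 1.74 and 2.96. Npas2 and Nfil3 also had lower levels, with differences of -1.77 (SE 0.66, edgeR adjusted p = 0.35) and -1.11 (SE 0.38, edgeR adjusted p = 0.324). Per3 and Tef had higher ones, at 1.46 (SE 0.43, edgeR adjusted p = 0.297) and 1.11 (SE 0.34, edgeR adjusted p = 0.297), but both overlapped the terminal tumours. Regressing 2 had the lowest Per3 of all 12, and regressing 2 and 3 had Tef levels inside the terminal range.

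The stretches just before the starts of 4 of these genes are shown to let the letters of the clock motifs be read beside the levels of the genes. Each is the 250 bases before the RefSeq start in GRCm38.p6, written 5′ to 3′ on the gene's strand, with motif matches in capitals. Positions count back from the start.
Dbp chr7:45704997-45705246 plus: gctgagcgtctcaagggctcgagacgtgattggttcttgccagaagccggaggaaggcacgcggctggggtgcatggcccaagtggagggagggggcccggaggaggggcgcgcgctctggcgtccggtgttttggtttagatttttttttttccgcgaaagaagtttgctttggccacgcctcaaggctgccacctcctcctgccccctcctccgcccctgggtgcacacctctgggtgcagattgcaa
Tef chr15:81802423-81802672 plus: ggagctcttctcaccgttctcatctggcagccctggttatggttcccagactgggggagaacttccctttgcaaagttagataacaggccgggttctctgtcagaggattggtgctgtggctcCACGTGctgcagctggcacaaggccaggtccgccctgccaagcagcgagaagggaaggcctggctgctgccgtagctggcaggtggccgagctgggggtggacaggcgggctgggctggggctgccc
Per3 chr4:151044666-151044915 minus: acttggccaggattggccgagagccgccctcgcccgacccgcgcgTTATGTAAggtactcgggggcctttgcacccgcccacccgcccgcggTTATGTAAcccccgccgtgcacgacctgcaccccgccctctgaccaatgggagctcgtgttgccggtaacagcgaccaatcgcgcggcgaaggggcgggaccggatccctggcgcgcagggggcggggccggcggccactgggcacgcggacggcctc
Nfil3 chr13:52981040-52981289 minus: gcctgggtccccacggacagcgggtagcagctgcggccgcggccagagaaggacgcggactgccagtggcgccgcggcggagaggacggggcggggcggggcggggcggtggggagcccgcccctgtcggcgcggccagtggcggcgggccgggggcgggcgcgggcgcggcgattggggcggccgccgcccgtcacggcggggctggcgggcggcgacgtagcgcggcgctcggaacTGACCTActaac
Capitals mark the E-box CACGTG at -127 in Tef, the D-box TTANGTAA at -205 and -158 in Per3, and the ROR element TAGGTCA, bound by NR1D1 and ROR factors, which lies on the minus strand at -12 in Nfil3 and so reads as its reverse complement. Dbp holds none of these 3 motifs in this window. On either strand the E-box is in 6.02% of 32851 such windows in the mouse, the D-box in 2.06% and the ROR element in 2.23%. A window was matched for 17 of the 20 clock genes, of which 5 held an E-box (Per1, Cry1, Tef, Ciart and Bhlhe41), 2 a D-box (Per3 and Rorb) and 1 a ROR element. A gene with several windows was counted if any of them held the motif, and a window with a match was then the one shown. These counts of genes are therefore not comparable with the shares of windows. A match here describes letters, not binding.

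**Figure D4:**
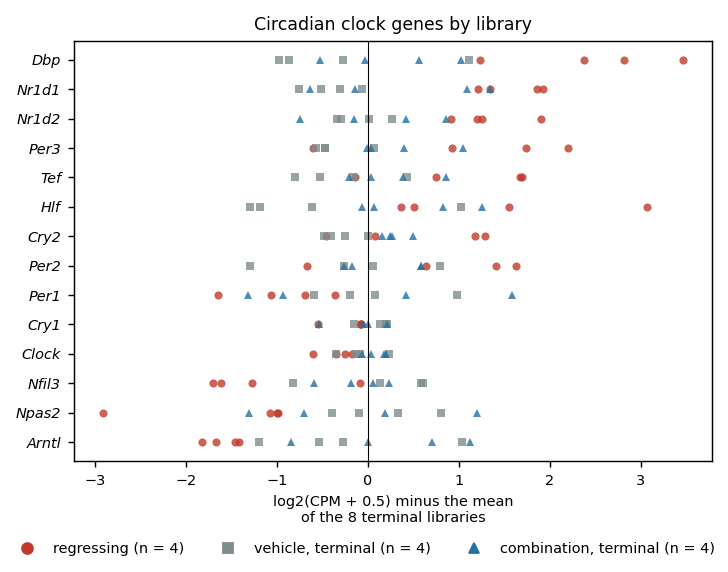
Level of 14 clock genes in each library, as log2(CPM + 0.5) minus the mean of the 8 terminal libraries. Red circles are regressing tumours, grey squares vehicle and blue triangles terminal combination tumours. The red circles of Dbp and Nr1d2 lie right of all terminal symbols and those of Arntl left of all of them.

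The genes lower in regressing tumours differed less in size. The 15 with the smallest p had log2 differences from -1.33 to -0.54. Plat, tissue plasminogen activator, a protease that dissolves fibrin and has a role in nerve repair, was 67.7, 99.8, 86.2 and 60.2 CPM in regressing 1 to 4, 244, 138, 149 and 137 CPM in vehicle and 275, 296, 141 and 217 CPM in terminal combination tumours. The groups did not overlap (log2 difference -1.33, SE 0.25, edgeR adjusted p = 0.169), and the difference was -1.09 against vehicle and -1.57 against terminal combination tumours. Among 19 matrix proteases and their inhibitors 12 were lower (median -0.22, and -0.07 without vehicle 2, -0.12 without vehicle 3 and -0.40 without regressing 1 and 4), and Adamts4, a protease of cartilage-type proteoglycans, had a difference of -0.99 (SE 0.37, edgeR adjusted p = 0.349).

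The other 14 have varied known roles. Ccar1, a coactivator linked to cell cycle and apoptosis, was 33.5, 40.9, 34.7 and 30.4 CPM in regressing tumours, 64.6, 47.2, 67.7 and 58.4 CPM in vehicle and 63.3, 56.8, 58.4 and 48.5 CPM in terminal combination tumours. Every regressing value was below every terminal one (log2 difference -0.74, SE 0.14, edgeR adjusted p = 0.169), with -0.77 against vehicle and -0.70 against terminal combination tumours. Spen, a very large repressor protein that recruits histone deacetylases, was 19.2, 20.6, 26.3 and 31.4 CPM against 35.5 to 53.8 CPM (log2 difference -0.86, SE 0.17, edgeR adjusted p = 0.19). Bcl9, a partner of beta-catenin in WNT transcription, was 19.9, 25.7, 24.1 and 20.2 CPM against 30.4 to 53.4 CPM (log2 difference -0.83, SE 0.16, edgeR adjusted p = 0.19).

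Ddx17, an RNA helicase, was 206, 194, 214 and 221 CPM in regressing tumours and 265 to 391 CPM in terminal ones (log2 difference -0.62, SE 0.13, edgeR adjusted p = 0.221). Safb, a protein of the nuclear scaffold, was 48.7, 54.3, 50.9 and 53.6 CPM against 60.8 to 91.6 CPM, with the regressing values within a few CPM of each other (log2 difference -0.55, SE 0.11, edgeR adjusted p = 0.205). Midn, which helps degrade nuclear proteins, was 105, 101, 105 and 106 CPM against 128 to 175 CPM (log2 difference -0.54, SE 0.11, edgeR adjusted p = 0.205). In each of these 3 no value overlapped between the regressing and terminal tumours, and the unadjusted edgeR p between the terminal groups was 0.718, 0.179 and 0.982.

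Kdm6b, which removes a repressive methyl mark from histone H3, was 30.1, 31.6, 37.4 and 34.6 CPM against 44.9 to 64.3 CPM (log2 difference -0.65, SE 0.14, edgeR adjusted p = 0.221). Smc5, a subunit of a complex for DNA repair, was 18.2, 24.3, 23.4 and 17.8 CPM against 29.9 to 46.2 CPM. Zfp609, Zfp532, Mex3d, Nav3 and Diexf are also among the 15: Zfp609 and Zfp532 encode zinc finger proteins, Mex3d an RNA-binding protein, Nav3 a microtubule-associated protein and Diexf a nucleolar protein. Their log2 differences were -0.71 (SE 0.13, edgeR adjusted p = 0.169), -0.68 (SE 0.15, edgeR adjusted p = 0.221), -0.65 (SE 0.14, edgeR adjusted p = 0.221), -0.87 (SE 0.18, edgeR adjusted p = 0.205) and -0.65 (SE 0.14, edgeR adjusted p = 0.221).

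A list of bromodomain, acetyltransferase, methyltransferase, demethylase and remodelling genes, chosen after these values were seen, was lower almost throughout. Of 61 tested 60 were lower, 30 at an unadjusted edgeR p under 0.05 and 12 below every terminal tumour, with a median log2 difference of -0.36. DESeq2 called 6 lower. Summed over the list, the regressing tumours held 3793 to 4271 CPM, vehicle tumours 5033 to 5468 CPM and terminal combination tumours 4531 to 5825 CPM, so the groups did not overlap. The median was -0.41 against vehicle and -0.34 against terminal combination tumours, and -0.02 between the terminal groups. Leaving out each regressing tumour in turn kept it between -0.39 and -0.33, and it was -0.24 with the adipocyte score and -0.34 with the muscle score as a covariate.

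Brd3, a bromodomain reader of acetylated histones, was 32.6, 34.6, 32.8 and 34.9 CPM in regressing tumours against 38.9 to 62.8 CPM (log2 difference -0.57, SE 0.14, edgeR adjusted p = 0.268). Ep300, a histone acetyltransferase, was 59.3, 66.9, 66.8 and 55.1 CPM against 72.9 to 123 CPM (log2 difference -0.56, SE 0.15, edgeR adjusted p = 0.275), and Kmt2b, a histone H3 methyltransferase, 27.1, 20, 29.6 and 33.3 CPM against 35.5 to 56.2 CPM (log2 difference -0.71, SE 0.18, edgeR adjusted p = 0.268). All 3 were below every terminal tumour, and DESeq2 called them with adjusted p of 0.0262, 0.044 and 0.032.

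Transcript length moved with this result. Over 13749 protein-coding genes the median log2 difference was 0.17 for transcripts of up to 1000 bases and -0.21 for those over 8000 bases. Spearman's rho between difference and length was -0.26 across genes, which are not independent replicates and share the 12 libraries, and it was 0.02 for terminal combination minus vehicle. GC content gave 0.0. Protein-coding genes below all terminal tumours had a median transcript of 5532 bases, those above all of them 2074, and all protein-coding genes tested 3162. The chromatin list has a median of 6697 bases. In each library, the median level of transcripts over 6000 bases minus that of transcripts under 1500 bases was -0.40, -0.21, -0.06 and -0.16 in regressing 1 to 4 on the log2 scale, 0.34, -0.10, 0.23 and -0.09 in vehicle and 0.21, -0.06, 0.17 and 0.13 in terminal combination tumours. Vehicle 2, vehicle 4 and combination 2 overlapped the regressing range.

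With the trend of length removed, an alternative added after the values were seen, the chromatin list had a median of -0.26 and 55 of 61 genes lower, where 51.6% of all genes tested were lower. Separation from all terminal tumours was then counted for 61 genes upward (0.39%) and 87 downward (0.556%), and edgeR called 0. The part that transcript length or RNA quality has in the lower genes was not tested beyond this. With the trend removed the 15 lower genes had log2 differences from -1.36 (Plat) to -0.51 (Midn and Kdm6b). The medians of the length classes, 0.17 to -0.21, were small beside these differences. That none of the 15 changed direction therefore says nothing about length.

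**Figure D5:**
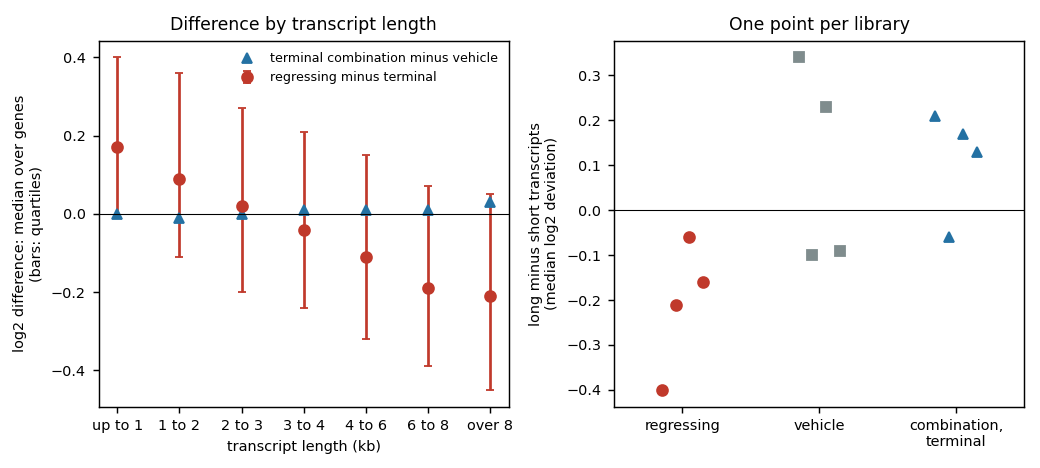
Left, median log2 difference by transcript length, with quartile bars, for regressing minus terminal tumours (red) and, without bars, terminal combination minus vehicle (blue triangles), over 13749 protein-coding genes. Right, the long minus short transcript index of each library. The red medians fall from 0.17 to -0.21 with length while the blue ones stay between -0.01 and 0.03, and 3 terminal libraries overlap the 4 regressing ones.

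Protein folding genes were lower too. Their transcripts had a median of 2770 bases, and all genes tested one of 2917. The part of RNA quality or tissue content in this difference was not tested. Of 33 heat shock and endoplasmic reticulum chaperones, another list chosen after values were seen, 30 were lower, 12 at an unadjusted edgeR p under 0.05, with a median log2 difference of -0.33, the same with the length trend removed. Without regressing 1 and 4 the median was -0.20 with 27 lower and 3 at p under 0.05, and without the 3 muscle-richest libraries -0.19 with 26 and 3. The summed level was 10420 to 13250 CPM in regressing tumours and 13580 to 17470 CPM in terminal ones, without overlap. Hsph1, a co-chaperone of HSP70 and the last of the 15 lower genes to be described, was 92.3, 85.3, 126 and 79.5 CPM in regressing tumours, 209, 129.8, 159 and 246 CPM in vehicle and 196, 179, 157 and 155 CPM in terminal combination tumours. All regressing values were below the terminal ones, although regressing 3 nearly reached vehicle 2 (log2 difference -0.90, SE 0.19, edgeR adjusted p = 0.221).

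Hspa1a, the stress-induced HSP70, was 4.14, 2.27, 3.64 and 2.39 CPM against 4.5 to 15.8 CPM (log2 difference -1.49, SE 0.41, edgeR adjusted p = 0.285), and Hyou1, a chaperone of the endoplasmic reticulum, 141, 164, 193 and 119.6 CPM against 202 to 300 CPM (log2 difference -0.67, SE 0.15, edgeR adjusted p = 0.24). Hspa5, the main chaperone there, known as BiP, was 729.6, 823, 840.5 and 596 CPM against 855 to 1277 CPM (log2 difference -0.47, SE 0.16, edgeR adjusted p = 0.332), and Dnaja1, a co-chaperone, had a difference of -0.45 (SE 0.12, edgeR adjusted p = 0.275). Hspa1a, Hyou1 and Hspa5 separated the groups and Dnaja1 did not. Of 14 genes of the unfolded protein and integrated stress response 10 were lower (median -0.40, with -0.26 without combination 1, -0.20 without the FFT libraries and -0.17 with the adipocyte score). Chac1, an enzyme that degrades glutathione under amino acid stress, went the other way at 73.8, 11.8, 10.8 and 17.4 CPM against 1.79 to 18.9 CPM (log2 difference 1.87, SE 0.52, edgeR adjusted p = 0.285), with its highest value in regressing 1.

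Genes for cholesterol and fatty acid synthesis, which the factor SREBP switches on when sterols are scarce, were lower. Of 19 tested 18 were lower, 7 at an unadjusted edgeR p under 0.05, with a median log2 difference of -0.55 (-0.74 against vehicle, -0.44 against terminal combination). It was -0.36 without regressing 1, -0.37 without regressing 1 and 4 (13 of 19 lower, 1 at p under 0.05) and -0.21 without the FFT libraries (2 at p under 0.05). Scd2, a fatty acid desaturase, was 311, 404, 452 and 318 CPM in regressing tumours against 452 to 1316 CPM (log2 difference -0.91, SE 0.29, edgeR adjusted p = 0.304), and Dhcr7, an enzyme of the last steps of cholesterol synthesis, had a difference of -0.50 (SE 0.16, edgeR adjusted p = 0.3).

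Hmgcs1, an early enzyme of cholesterol synthesis, was 24.5, 44, 55.4 and 36.8 CPM against 42.7 to 107 CPM, with regressing 2 and 3 inside the terminal range (log2 difference -0.78, SE 0.27, edgeR adjusted p = 0.325). Its start is shown as the one member whose window held the sterol regulatory element searched for, again 250 bases before the RefSeq start in GRCm38.p6, with the match in capitals.
Hmgcs1 chr13:119690101-119690350 plus: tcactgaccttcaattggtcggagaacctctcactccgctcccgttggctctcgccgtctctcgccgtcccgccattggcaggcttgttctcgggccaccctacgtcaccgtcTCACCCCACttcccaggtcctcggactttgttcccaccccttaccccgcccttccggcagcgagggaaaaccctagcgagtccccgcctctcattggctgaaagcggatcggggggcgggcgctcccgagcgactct
The letters searched were TCACNCCAC on either strand, found here at -137 and present in 1.05% of the 32851 windows. Of the 10 cholesterol and fatty acid genes with a window, 1 held it in any of its windows. No match in a window says only that these letters are not in it.

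For cell division genes the comparison averages over unlike values in its terminal groups. Of 23 genes of G2 and mitosis 22 were lower in regressing tumours, but only 2 at an unadjusted edgeR p under 0.05, with a median log2 difference of -0.32. That median was -0.76 against vehicle and 0.10 against terminal combination tumours. Mki67, the proliferation marker Ki-67, was 28.7, 63.6, 45 and 39.3 CPM in regressing tumours, 109, 61.5, 169 and 153 CPM in vehicle and 58.1, 33.9, 76.4 and 25 CPM in terminal combination tumours. The ranges of regressing and terminal combination tumours overlapped, and 3 of the 4 vehicle tumours were above both (log2 difference -0.81, SE 0.35, edgeR adjusted p = 0.405). Cenpe, a motor of the kinetochore, had a difference of -1.11 (SE 0.44, edgeR adjusted p = 0.359). Without regressing 1 and 4 the median of the mitosis list was 0.14, with 19 of 23 higher, and with the adipocyte score 0.49, with 20 of 23 higher. It was -0.14 without regressing 1, -0.16 without regressing 4, -0.13 without combination 3, -0.66 without regressing 2 and -0.16 without the FFT libraries.

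The 23 S phase genes had a median of -0.08 (-0.43 against vehicle, 0.28 against terminal combination), and its direction turned with the libraries used. It was -0.42 without regressing 2, with 23 of 23 lower, 0.07 without regressing 4, 0.32 without regressing 1 and 4, with 18 higher, and 0.43 with the adipocyte score, with 21 higher. Mcm4, a subunit of the replicative helicase, had a difference of -0.42 (SE 0.19, edgeR adjusted p = 0.417). The RNA of CDK4/6 and RB pathway genes differed little. RNA levels do not measure kinase activity, and the RNA of MEK, the target of mirdametinib, is not described here. Of 14 genes of the CDK4/6 and RB pathway 9 were lower (median -0.15, with -0.23 without regressing 3 and 0.06 without the FFT libraries). Cdk4 was 279, 375, 381 and 293 CPM in regressing tumours and 268 to 546 CPM in terminal ones, and its differences and those of Cdk6, Ccnd1 (cyclin D1) and Rb1 were -0.26 (SE 0.20, edgeR adjusted p = 0.633), -0.06 (SE 0.20, edgeR adjusted p = 0.929), 0.21 (SE 0.33, edgeR adjusted p = 0.835) and 0.05 (SE 0.27, edgeR adjusted p = 0.964). None of these 4 separated the groups.

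Of 21 genes switched on by ERK 18 were lower, with a median of -0.33 (-0.28 against vehicle, -0.24 against terminal combination), 1 of them at an unadjusted edgeR p under 0.05. The median was -0.03 with the adipocyte score, with 10 higher and 11 lower, -0.15 without regressing 1 and 4, and -0.50 without regressing 2. The 1 gene was Spred3, a feedback inhibitor of RAS, at 10.1, 12.7, 9.98 and 4.86 CPM against 11.1 to 20.5 CPM. Dusp6, the phosphatase that ERK induces against itself, was 103, 111, 129 and 70.9 CPM in regressing tumours, 119.8, 179.7, 136 and 147 CPM in vehicle and 130, 184, 332 and 67.3 CPM in terminal combination tumours. The lowest value of all was in combination 4 and the highest in combination 3 (log2 difference -0.64, SE 0.34, edgeR adjusted p = 0.484). Spry4 and Etv4, also ERK targets, had differences of -0.04 (SE 0.40, edgeR adjusted p = 0.979) and -0.12 (SE 0.55, edgeR adjusted p = 0.949). Nf1 and Cdkn2a had differences of -0.20 (SE 0.26, edgeR adjusted p = 0.788) and 0.54 (SE 0.99, edgeR adjusted p = 0.856).

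Of 23 growth factor receptors and ligands 19 were lower (median -0.46, and -0.17 with 13 lower without the FFT libraries), with Igf1r, the receptor for IGF1, at -0.65 (SE 0.23, edgeR adjusted p = 0.332), Vegfa, the vessel growth factor, at -0.76 (SE 0.30, edgeR adjusted p = 0.363), and Erbb3, a neuregulin receptor of Schwann cells, at -1.87 (SE 0.82, edgeR adjusted p = 0.405). Igf1r was 47.4, 35.9, 40.3 and 28.9 CPM against 28.8 to 93.2 CPM. Of 15 Schwann lineage and neural crest genes 8 were higher and 7 lower (median 0.42). Without regressing 2 or 3 that median was 0.13 and 0.11, and -0.04 with the adipocyte score. Ncam1, an adhesion molecule of immature Schwann cells and of regenerating muscle, was 26.6, 38.1, 51.8 and 29.9 CPM in regressing tumours against 39.1 to 223 CPM, while Mbp, a protein of myelin, was 14.8, 28.6, 12.7 and 38.6 CPM against 5.38 to 19.6 CPM. Both overlapped between groups, with log2 differences of -1.30 (SE 0.39, edgeR adjusted p = 0.297) and 1.27 (SE 0.39, edgeR adjusted p = 0.297). Of 10 genes of neurons and axons 9 were lower (median -0.61), with -0.31 without regressing 2 and -1.05 without regressing 3.

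The remaining lists were close to the background or mixed. Of 17 p53 targets 12 were lower (median -0.16), and of 17 genes of the BCL2 family and caspases 10 were higher (0.04), with no call by edgeR or DESeq2 in either. Of 24 collagens, matrix glycoproteins and crosslinkers 16 were higher (0.10). Dcn, a proteoglycan of connective tissue, was 1243, 547, 656 and 2653 CPM in regressing tumours against 145 to 1067 CPM (log2 difference 1.36, SE 0.46, edgeR adjusted p = 0.321), with a difference of 2.09 against vehicle and 0.63 against terminal combination tumours. Of 18 hypoxia and glycolysis genes 11 were lower (-0.15), and of 19 glucocorticoid and fasting genes 10 were lower (-0.09), among them none called. With 1 library out the median of the p53 targets lay between -0.25 and -0.06 (without combination 4 and combination 1), that of the BCL2 family between 0.03 and 0.10 (without regressing 2 and 3), that of the matrix genes between -0.04 and 0.20 (without regressing 3 and combination 1), that of hypoxia genes between -0.22 and 0.13 (without vehicle 1 and 3) and that of glucocorticoid genes between -0.22 and 0.23 (without regressing 1 and combination 2). Of 15 secreted inflammatory factors 8 were lower (-0.32, with -0.69 without regressing 2 and 0.02 without regressing 3), with 1 DESeq2 call, for Cxcl5. Cxcl5, a neutrophil chemokine, was 0.319, 0.29, 0.133 and 0.386 CPM in regressing tumours, 0.342, 12.6, 25.9 and 0.584 CPM in vehicle and 1.59, 3.34, 0.196 and 0.742 CPM in terminal combination tumours (log2 difference -3.75, edgeR adjusted p = 0.317). The 4 regressing values lay at the low end of the terminal range, and the highest values were in vehicle 2 and 3. Ccl8, a chemokine of monocytes, was 470.1, 288, 64.6 and 99.7 CPM against 35.4 to 254 CPM.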

How the data were processed

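Total RNA from 12 tumours was extracted with the RNeasy mini kit and made into libraries with the TruSeq Stranded mRNA kit, per the labels' protocols. The deposited files give raw read counts for 54532 Ensembl genes. The submitters' processing notes name HISAT2 2.2.1, Salmon, DESeq2 1.24.0 and the builds mm10 and GRCm38.p6. Which tool made the counts, with which strand setting and annotation release, is not given in the sources used here. Symbols and positions came from GENCODE M21 (54495 genes matched) and promoter sequences from RefSeq.

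Counts were tested with edgeR 4.0.16 in R 4.3.3: TMM scaling, filterByExpr (minimum count 10, 15650 genes kept), a quasi-likelihood fit of 3 groups over all 12 libraries, and the contrast of regressing minus the mean of vehicle and terminal combination, with Benjamini-Hochberg adjustment. CPM values are scaled by TMM. DESeq2 1.42.0, limma 3.58.1 and the other alternatives stand in the closing section. Scripts were tested on simulated data. Transcript length is that of the longest basic transcript. No 2 libraries agreed within counting noise.

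The genes described most closely are the 15 protein-coding genes with the smallest p in each direction at a mean of at least 1 CPM, up to 4 members of each list by p, and a fixed panel of 13 pathway and antibody genes. Per3, Tef, Nfil3, Npas2 and Ep300 were added after their values were seen. Some genes that the rule would name are not reported here. The comparison, the 41 gene lists and the alternatives were chosen with earlier results of these data known. Another 3 lists (clock, chaperone and chromatin genes) were chosen after their values were seen. The median and the counts of a list were therefore given no test. Read shares, among them those of immunoglobulin, skeletal muscle, adipocyte and red blood cell genes, were given the exact permutation test. Those p-values belong to a comparison chosen with earlier results known.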

Additional observations from a re-analysis of the deposited data

Results flagged for a closer look

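In groups of 4, a highest or lowest library was set apart where its gap to the next, divided by the group's range on the log2(CPM + 0.5) scale, passed Dixon's critical value for 4 samples at the 95% level. Of 357 groups of gene values and read shares screened 13 passed, and chance sets apart about 1 in 20 groups. Only Npas2 and Rb1 concern a regressing tumour: regressing 4 had the lowest Npas2 of its group, 0.154 CPM, and the highest Rb1, 25.6 CPM.

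Among vehicle tumours, vehicle 1 had the highest Plat (244 CPM), the highest Diexf (30.9 CPM) and the lowest Steap4 (6.33 CPM). Vehicle 3 had the highest Smc5 (46.2 CPM), Vegfa (51.8 CPM) and Glycam1 (0.0508 CPM, the only vehicle tumour with a read). Vehicle 4 had the highest Per3 (4.08 CPM) and Hyou1 (300.0 CPM). Among terminal combination tumours, combination 1 had the lowest Naglu (52.9 CPM), combination 2 the highest Igf1r (93.2 CPM) and combination 3 the lowest Dcn (303.5 CPM).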

How the results depend on the processing

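At an adjusted p of 0.05 the count of genes lower in regressing tumours was 0 under each of the 27 alternatives except DESeq2, which called 91. For higher genes DESeq2 called 213, edgeR without a low-count filter 5, and edgeR with 2 groups only 4. Leaving out 1 library at a time gave 0 to 9 higher calls, with 9 without regressing 3 and 2 without combination 4. With 1 library out the counts of separated genes, 71 upward and 130 downward with all 12, were 94 to 238 upward and 118 to 291 downward (upward 180 without regressing 2, 238 without regressing 3, 122 without regressing 4, 112 and 117 without vehicle 1 and 4, 119 and 151 without combination 2 and 4, and downward 291, 224, 205 and 202 without regressing 3, regressing 4, combination 2 and combination 4), 280 and 390 without the FFT libraries, 246 and 418 without regressing 1 and 4, and 332 and 511 without the 3 muscle-richest libraries. Fewer libraries make separation easier to reach with no group difference. The counts of separated genes from fewer libraries can therefore not be compared with those from all 12. At an unadjusted edgeR p under 0.05 the counts of higher and lower genes were 355 and 559 with the muscle score and 371 and 287 with the adipocyte score as covariate, 753 and 421 without the FFT libraries, 215 and 265 without the 3 muscle-richest libraries, and 1693 and 950 with no low-count filter. No paired analysis was possible because the labels give the tumours no replicate numbers.

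The immunoglobulin share difference lay between 0.0882 and 0.149 percentage points with 1 library out (adjusted exact permutation p 0.0303 to 0.121) and was 0.124 without the FFT libraries. The adipocyte share difference lay between 0.0170 and 0.0838 with 1 library out and had an adjusted exact p of 0.0455 without combination 4.

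For the 107 genes described, 2771 of 2877 values kept their direction and side of the threshold, 69 passed it and 37 changed sign, all in Dusp6, Spry4, Etv4, Cdk4, Cdk6, Rb1, Cd274, Nf1 and Cdkn2a. With the muscle score as covariate the log2 differences were 0.28 for Spry4, 0.13 for Etv4, 0.06 for Cdk4, -0.33 for Rb1 and -0.21 for Cdkn2a. With the adipocyte score they were 0.14 for Dusp6, 0.14 for Spry4, 0.88 for Etv4, 0.18 for Cdk4, -0.51 for Rb1 and 0.01 for Nf1. Without the 3 muscle-richest libraries they were 0.10 for Spry4, 0.52 for Etv4, -0.18 for Rb1 and -0.01 for Cd274, and without regressing 1 and 4 they were 0.52 for Etv4, -0.22 for Rb1 and -0.09 for Cdkn2a. With the length trend removed they were 0.01 for Spry4, 0.16 for Cdk6 and 0.04 for Nf1. Spry4 was 0.12 with limma voom, 0.07 with the FFT ending as covariate and 0.21 without the FFT libraries. With 1 library out the ranges were -0.17 to 0.26 for Spry4, -0.71 to 0.25 for Etv4, -0.14 to 0.07 for Cdk6, -0.20 to 0.20 for Rb1, -0.04 to 1.20 for Cd274 and -0.17 to 0.99 for Cdkn2a. The cause of these changes was not tested. The adipocyte score, the length trend, leaving out the 3 muscle-richest libraries and edgeR's robust prior were added after seeing the data.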
